A study of Mus musculus with 7 samples.

Results

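Snai1, Snai2, Zeb1, Zeb2, Twist1, Twist2, Tcf21, Prrx1 and Prrx2 encode transcription factors of mesenchymal cells. They were followed through every probe set of the deposited table whose only gene symbol is one of these 9 names. The 9 genes were chosen with earlier results of these data known. Their probe sets were matched by the platform's gene symbols alone. This gave 9 genes of the 18193 that have a probe set of their own, with 23 probe sets of 45101 in the table. A probe set is the group of short probes on an array that reports on 1 stretch of transcript, and a gene can have several. Zeb1 had 4, Zeb2 had 5, Prrx1 had 6, Snai2 and Tcf21 had 2 each, and the other genes had 1 each.

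RNA from 2 sorted populations of bone marrow cells was measured on 7 Affymetrix Mouse GE 430 2.0 arrays. All mice were wild-type C57Bl/6J young adults of 6 to 12 weeks. The first population, called stromal here as in its label, lacked CD45, lineage markers and CD31 and carried CD54 and BP1 (n = 4 arrays). The second, labelled endothelial, lacked CD45, lineage markers and CD54 and carried CD31 (n = 3). Each array received amplified RNA from 1800 to 10000 cells. Which mice or sorts the arrays of 1 population come from is not given in the sources used here, so each p measures the spread between these arrays. Values are log2 expression values, and a difference is stromal minus endothelial, so that 1 means a doubling. Precision is set by how few arrays there are.

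Snail and Zeb factors are zinc finger repressors that bind E-boxes, short DNA motifs in promoters. They are best known for silencing epithelial junction genes when epithelial cells become mesenchymal. Twist1, Twist2 and Tcf21 are basic helix-loop-helix factors, which bind E-boxes as pairs with E proteins. Prrx1 and Prrx2 are paired-type homeodomain factors of embryonic mesenchyme. In the marrow, Prrx1 activity marks the lineage of limb skeletal stroma, while Zeb2 is also needed by blood-forming cells.

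The labels were checked against marker genes. Icam1 and Enpep, among the reticular stroma markers, and Pecam1, among the endothelial ones, encode CD54, BP1 and CD31. These antigens defined the sort, so these genes are no independent check of the labels. All 12 reticular stroma markers, such as Cxcl12 and Lepr, were higher in the stromal samples, and all 10 megakaryocyte and platelet markers measured were higher in the endothelial samples. Of 12 endothelial markers, 4 were higher there and 3 passed neither way. Toward the stromal arrays 1 endothelial marker had an unadjusted limma p under 0.05, and 1 was called with averaged probe sets. Over all genes tested, 30.5% were called higher in the stromal and 16.0% in the endothelial samples. Cdh5, Tek, Tie1, Emcn and Robo4 lay below the filter for dim probe sets. These defining markers of the labelled cell type did not pass in the endothelial samples, so they do not bear out the label. The name endothelial is kept here as a label only. As log2 of summed levels, the endothelial markers stood at 12.24 to 12.93 there and 9.75 to 9.95 on the stromal arrays. Megakaryocyte and platelet markers stood at 17.33 to 17.47 there, against 11.06 to 12.92. Pan-leukocyte markers stood at 15.53 to 15.80 there, against 10.56 to 11.88. The hybridisation controls, spiked-in label that reports no cellular RNA, averaged 11.33 on endothelial 2 and 11.37 on endothelial 3, and elsewhere ranged from 9.51 to 9.75. A fit with that level as a block compares endothelial 1 alone with the stromal arrays. In bulk RNA, fewer cells of a type and less RNA per cell cannot be told apart.

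The factors fell into those clearly higher in the stromal cells, Snai2, Prrx1 and Twist1, those with a smaller or less even difference, Twist2 and Zeb1, and Zeb2, which was bright in both populations. Snai1 and Tcf21 lay below the 40th percentile of every array and Prrx2 below that of 5 arrays. Of the 23 probe sets, 9 from 5 genes were called stromal and 0 endothelial, where a call needs a limma p of less than 0.05 after Benjamini-Hochberg adjustment and groups that differ by 1 log2 unit or more. Among all 29439 probe sets tested, 26.0% were called stromal and 14.6% endothelial, 40.6% in all. Tested were probe sets that exceeded the 40th percentile of the array, a value between 5.48 and 5.79, on 3 arrays or more, and 17 of the 23 did. Of these 17, 5 passed through the stromal arrays alone: both Snai2 sets, the Twist1 set, and 1425528_at and 1439774_at of Prrx1. Without the filter the same limma fit again called 9 of the 23 stromal, where it called 17.3% of all probe sets stromal, 12.3% endothelial and 29.6% in all. In that fit 3 probe sets had an unadjusted p under 0.05 toward the endothelial arrays and 0 were called; in the filtered fit that number was 0. On 9 of the 23 every stromal array lay above every endothelial one, as on 20.7% of all probe sets, and on 2 the reverse held, as on 40% of all; the groups overlapped on the other 12, and were apart on 60.7% of all probe sets. Among the 17 tested the groups were apart on 9, all with the stromal arrays higher, against 61.6% of all tested, 30.3% with the stromal and 31.4% with the endothelial arrays higher. The 2 probe sets with the endothelial arrays higher lay below the filter, so the filter partly set this 1-sided split. The median difference over the 23 was 0.69, against -0.31 over all probe sets.

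**Figure D1:**
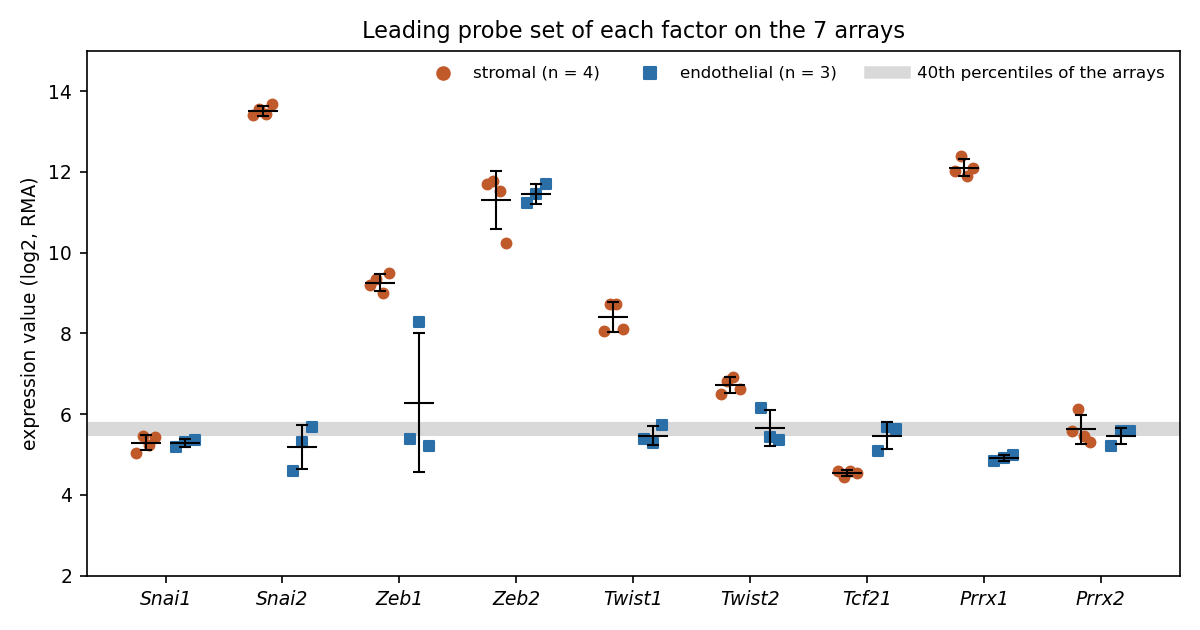
Log2 expression value of the leading probe set of each factor, the one with the highest mean over the 7 arrays, on each stromal (circles, n = 4) and endothelial (squares, n = 3) array; bars are mean ± SD and the grey band spans the arrays' 40th percentiles, 5.48 to 5.79. Snai2 and Prrx1 lie far apart between the populations, Zeb2 lies at 10.23 to 11.77 on all arrays, and Snai1, Tcf21 and Prrx2 lie near or below the band; levels of different probe sets cannot be set against each other.

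**Figure D2:**
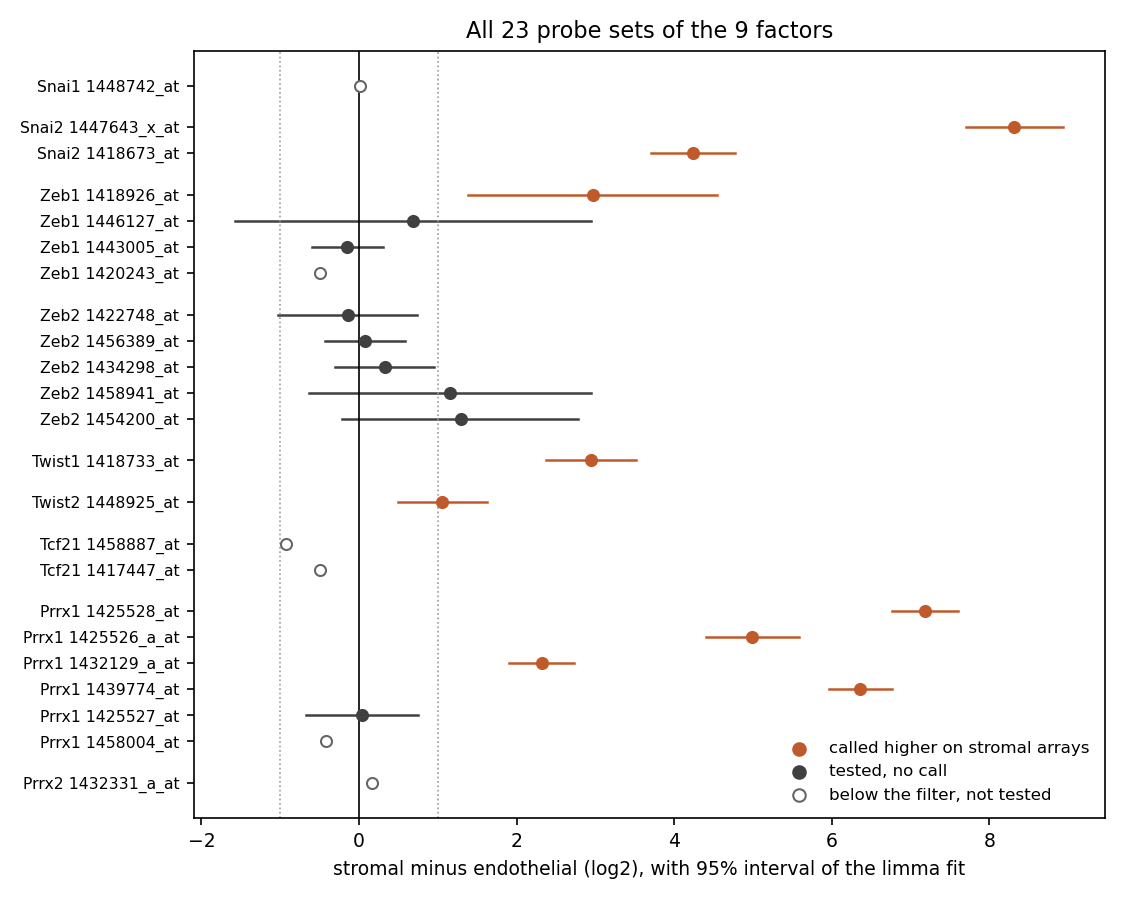
Difference in log2 expression, stromal minus endothelial, for all 23 probe sets with the 95% interval of the limma fit; open circles were below the filter and have no test, and dotted lines mark differences of 1 and -1. Both Snai2 probe sets and 4 of the 6 for Prrx1 lie beyond 2, whereas all 5 intervals of Zeb2 include 0.

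Promoter sequences of the factors give the context for these levels. RefSeq promoters of mouse assembly GRCm38.p6, from 250 bases before to 50 after a start, were found for 7 of the 9 genes, 10 windows in all. The windows searched, also used for the shares below, left out a whole chromosome, so a missing window does not mean a missing promoter. Shown are Prrx1, Twist1 and Twist2, which were called together, and Snai1, the Snail gene at the floor. Capitals mark CACCTG or its reverse complement CAGGTG, the E-box that Snail and Zeb proteins bind best, and TAATTA, a homeodomain core motif that reads the same on both strands. All are written 5′ to 3′ along the gene's strand.
Prrx1 (chr1:163313601-163313900, minus strand): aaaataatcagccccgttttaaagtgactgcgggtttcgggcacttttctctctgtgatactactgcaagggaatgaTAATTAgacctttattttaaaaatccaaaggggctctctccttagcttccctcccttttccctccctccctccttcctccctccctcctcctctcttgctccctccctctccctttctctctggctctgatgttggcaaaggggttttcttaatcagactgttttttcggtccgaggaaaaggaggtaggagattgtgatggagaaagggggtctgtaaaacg
Twist1 (chr12:33957421-33957720, plus strand): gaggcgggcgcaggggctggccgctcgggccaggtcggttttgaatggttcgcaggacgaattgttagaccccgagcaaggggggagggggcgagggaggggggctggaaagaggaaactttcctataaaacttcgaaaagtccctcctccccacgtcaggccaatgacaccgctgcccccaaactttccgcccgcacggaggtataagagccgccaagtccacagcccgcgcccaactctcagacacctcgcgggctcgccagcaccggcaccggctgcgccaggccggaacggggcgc
Twist2 (chr1:91801211-91801510, plus strand): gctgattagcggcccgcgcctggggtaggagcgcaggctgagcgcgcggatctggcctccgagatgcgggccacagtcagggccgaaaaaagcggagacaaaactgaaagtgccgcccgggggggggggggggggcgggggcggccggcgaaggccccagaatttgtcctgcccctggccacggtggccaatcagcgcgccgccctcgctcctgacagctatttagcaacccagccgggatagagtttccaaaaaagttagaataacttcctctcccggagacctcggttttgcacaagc
Snai1 (chr2:167537945-167538244, plus strand): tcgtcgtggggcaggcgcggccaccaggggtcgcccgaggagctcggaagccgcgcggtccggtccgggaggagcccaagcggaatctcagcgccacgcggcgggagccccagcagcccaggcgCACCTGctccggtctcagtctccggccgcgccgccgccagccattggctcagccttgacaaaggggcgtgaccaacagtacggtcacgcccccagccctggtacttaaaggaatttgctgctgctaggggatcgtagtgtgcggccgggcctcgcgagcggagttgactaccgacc

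The Snai1 window held CACCTG 1 time, with its first base 126 bases before the start, and no other window of the 10 held it. Over 32851 promoter windows of 300 bases, 20.2% held this motif on either strand. The general E-box CANNTG, which includes CACCTG, stood in 72.3% of all windows, and among the 10 windows in that of Snai1 alone. TAATTA occurred in the Prrx1 window, 173 bases before the start, and in 5.29% of all windows. A match describes these letters and shows no binding.

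Snai2, which encodes the repressor Slug, was the most clearly separated Snail gene. On its brighter probe set, 1447643_x_at, the stromal arrays lay at 13.40, 13.55, 13.43 and 13.67 and the endothelial arrays at 4.58, 5.31 and 5.67. The groups were far apart, and all 3 endothelial values lay below their arrays' 40th percentile, so no fold is given. The fitted difference was 8.32 ± 0.27 (SE, limma adjusted p = 4.72e-07). With the endothelial side in the dim range, such a fitted value gives a direction, and its size is not exact. This holds for both Snai2 probe sets, for Twist1, for Twist2 and for 3 of the 4 called Prrx1 sets. It also holds for any gene named below whose endothelial mean lies under the 40th percentile. The suffix _x_at marks a probe set with probes that may also pair with other transcripts. The other probe set, 1418673_at, lay at 8.76, 8.70, 9.21 and 9.44 against 4.95, 4.73 and 4.67. Its fitted difference was 4.24 ± 0.23 (limma adjusted p = 3.95e-06), in the same direction on every array. Over the alternatives the fitted values ran from 7.85 to 8.94 for the first and from 3.95 to 4.39 for the second.

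Snai1, the founding Snail gene, had 1 probe set, which lay at 5.05, 5.47, 5.24 and 5.43 on the stromal and 5.19, 5.31 and 5.37 on the endothelial arrays. The groups overlapped, and 0 arrays reached their 40th percentile. It was not tested, and at this level a difference could not be measured.

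The Zeb genes did not follow Snai2. Zeb1 was higher on the stromal arrays on the probe set 1418926_at, at 9.19, 9.34, 9.0 and 9.49 against 5.39, 8.27 and 5.20. Every stromal array lay above every endothelial one, but endothelial 2 came within 1 log2 unit of the stromal range while endothelial 1 and 3 were near the floor. The means were 9.25 ± 0.21 (SD, n = 4) and 6.29 ± 1.72 (n = 3; limma adjusted p = 0.00717), and no fold is given because endothelial 1 and 3 lay below their 40th percentiles. Without endothelial 2 the difference rose from 2.97 to 3.96 (adjusted p = 1.16e-05), and with endothelial 1 alone it was 3.86 (adjusted p = 0.0212 with the hybridisation-control block). Averaging the 4 probe sets of Zeb1 brought it to 0.75 and ended the call.

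Endothelial 2 also differed from its group in marker genes. The summed B-lineage markers (9 measured) stood at 13.42 there, against 10.64 on endothelial 1, 10.93 on endothelial 3 and 9.09 to 10.11 on stromal arrays. The 12 reticular stroma markers summed to 10.11 there, against 9.30 and 9.53, and to 16.64 to 16.78 on the stromal arrays. The number of these 9 B-lineage markers above the 40th percentile did not set it apart, at 8 on endothelial 1 and 9 on both endothelial 2 and 3. Neutrophil markers (16.08, against 15.43 and 13.83) and mesenchymal structural genes (12.76, against 11.54 and 11.89) also had their highest endothelial sum there. Erythroid (10.11), endothelial (12.24) and megakaryocyte and platelet (17.33) sums were instead the lowest of the group on endothelial 2. On that array 562 of 29439 tested probe sets exceeded both other endothelial arrays by at least 2, against 286 for endothelial 3 and 39 for endothelial 1. The part of any of these cell types or of this array in the Zeb1 value was not tested.

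**Figure D3:**
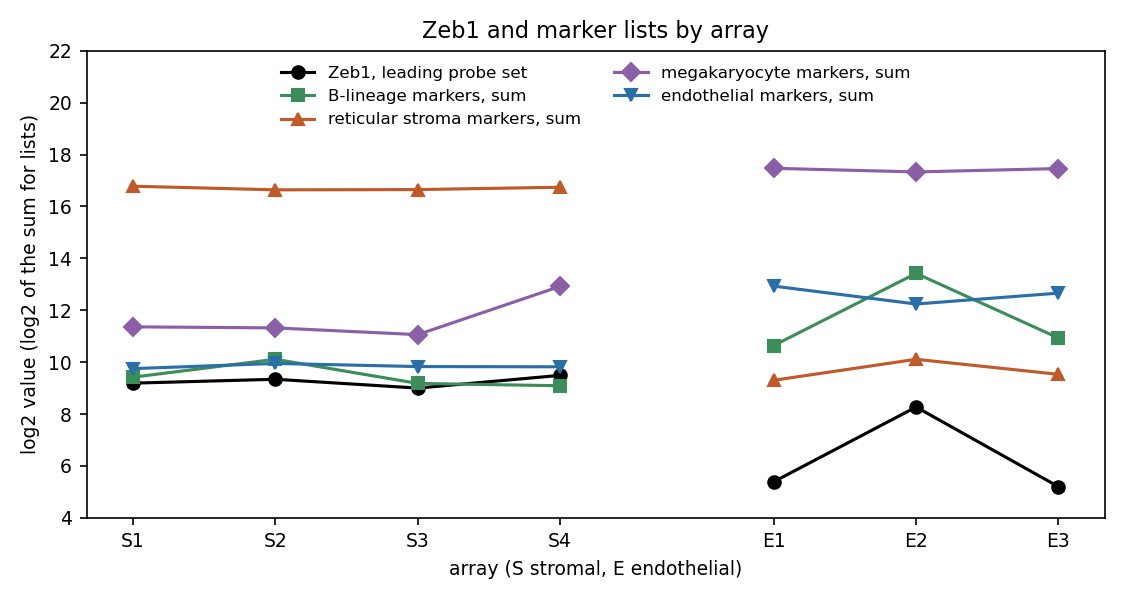
Log2 value of Zeb1 on its leading probe set, 1418926_at, and log2 of the summed levels of marker lists (B-lineage, reticular stroma, megakaryocyte, endothelial) on each array (S stromal, E endothelial); lines only join values of 1 item within a population. Zeb1 and the B-lineage sum are both highest among the endothelial arrays on endothelial 2, at 8.27 and 13.42, and the megakaryocyte sum is highest among the stromal arrays on stromal 4, at 12.92.

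The other Zeb1 probe sets showed no such difference. On 1443005_at the stromal arrays lay at 6.73, 6.87, 6.79 and 6.84 and the endothelial arrays at 6.61, 7.24 and 7.01, a difference of -0.15 with a 95% interval from -0.60 to 0.30. On 1446127_at they lay at 8.59, 6.04, 7.39 and 6.95 against 5.52, 5.10 and 9.03, so 1 endothelial array was the highest of all. Without that array, endothelial 3, the difference of 0.69 became 1.93 and passed the test (limma adjusted p = 0.0354). The remaining set, 1420243_at, lay at 3.26 to 3.83 on the stromal and 3.83 to 4.47 on the endothelial arrays and was below the filter.

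Zeb2, the repressor also known as SIP1, was the factor most evenly present in both populations. On 1422748_at the stromal arrays lay at 11.71, 11.77, 11.52 and 10.23 and the endothelial arrays at 11.22, 11.44 and 11.70. The groups overlapped, with stromal 4 lowest of all 7. The difference was -0.14 with a 95% interval from -1.03 to 0.74 (limma adjusted p = 0.757), and without stromal 4 it was 0.21 (adjusted p = 0.414). Stromal 4 also had the highest megakaryocyte and platelet sum among the stromal arrays, 12.92 against 11.06 to 11.36, with 17.33 to 17.47 on the endothelial arrays; the part of this in the Zeb2 value was not tested.

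The next Zeb2 probe sets gave the same picture. On 1456389_at the values were 9.40, 9.55, 9.32 and 9.62 against 9.05, 9.33 and 9.80, a difference of 0.08 with an interval from -0.43 to 0.58. On 1434298_at they were 8.14, 8.69, 8.45 and 9.14 against 8.59, 8.15 and 8.09, a difference of 0.33 with an interval from -0.30 to 0.95. Neither interval reached a log2 difference of 1 in either direction. Both differences turned negative after the second quantile normalization (-0.45 and -0.35) and after cyclic loess (-0.49 and -0.33).

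The last 2 Zeb2 probe sets spread widely within each population. On 1458941_at the stromal arrays lay at 10.11, 7.66, 8.99 and 8.39 and the endothelial arrays at 7.18, 6.38 and 9.34. On 1454200_at they lay at 8.02, 5.54, 6.80 and 6.12 against 4.33, 5.39 and 6.29. Both overlapped between the groups and neither passed (adjusted p = 0.227 and 0.117). The first passed without endothelial 3 (2.00, adjusted p = 0.0326), and the second after centring on ribosomal protein genes (1.43, adjusted p = 0.0245). Of all 5 Zeb2 probe sets, 0 were called and 0 had an unadjusted limma p under 0.05.

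The stromal arrays took 1 order on 1458941_at, 1454200_at and the Zeb1 set 1446127_at, with stromal 1 highest, then 3, 4 and 2. That order was found in 7.1% of all tested probe sets, but in 650 of the 967 (67.2%) whose stromal range was at least 2. These 3 Zeb probe sets therefore shared their spread between replicates with many others on the array, and the source of it was not tested.

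**Figure D4:**
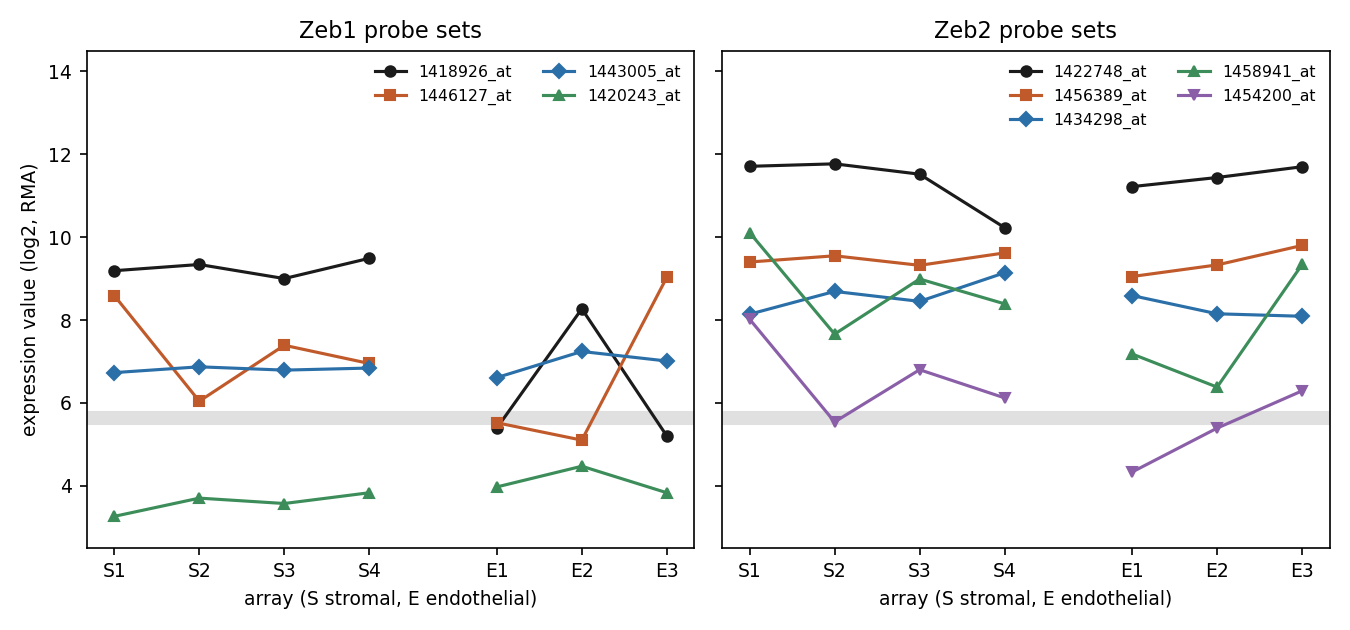
Log2 expression value of the 4 Zeb1 and 5 Zeb2 probe sets on each array (S stromal, E endothelial); lines join the values of 1 probe set within a population and the grey band spans the arrays' 40th percentiles. Zeb1 1418926_at is at 5.20 and 5.39 on 2 endothelial arrays and 8.27 on endothelial 2, while 1446127_at, 1458941_at and 1454200_at share the order of the stromal arrays.

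Twist1 was higher in the stromal cells, with no overlap. Its only probe set lay at 8.07, 8.72, 8.73 and 8.10 on the stromal and 5.38, 5.28 and 5.73 on the endothelial arrays, the latter near the floor. The difference was 2.94 ± 0.25 (SE, limma adjusted p = 4.06e-05) and kept between 2.69 and 3.09 over the alternatives in which Twist1 was tested per probe set.

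Twist2, also called Dermo1, lay closer to the floor, at 6.49, 6.83, 6.92 and 6.63 against 6.16, 5.44 and 5.37. The groups did not overlap, but endothelial 1 came near the lowest stromal array. The endothelial mean of 5.66 lay below the 40th percentile of its arrays, so the size of the difference is not exact. The difference of 1.06 ± 0.24 (limma adjusted p = 0.00686) sat at the required size of 1. It fell short without stromal 3 (0.995), endothelial 2 (0.95) or endothelial 3 (0.92), and was 0.56 (adjusted p = 0.113) with endothelial 1 alone under the hybridisation-control block. It rose to 1.31 without endothelial 1.

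Tcf21, a helix-loop-helix factor of visceral and cardiac mesenchyme, was not above the floor in either population. Its brighter probe set, 1458887_at, lay at 4.6, 4.44, 4.6 and 4.55 on the stromal and 5.08, 5.67 and 5.64 on the endothelial arrays. The endothelial values were all higher, yet 0 arrays reached their 40th percentile. The difference was -0.92, beside a median of -0.50 over all probe sets below the filter. On 1417447_at the arrays lay at 2.93 to 3.23 and 3.23 to 3.86.

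Prrx1 was strongly higher in the stromal cells on 4 of 6 probe sets. On 1425528_at the stromal arrays lay at 12.02, 12.39, 11.90 and 12.09 and the endothelial arrays at 4.85, 4.92 and 4.98. The spread within each population was small, and the endothelial values were below the 40th percentiles. The fitted difference was 7.19 ± 0.18 (SE, limma adjusted p = 2.51e-07). On 1439774_at the values were 9.78, 9.83, 9.81 and 9.83 against 3.25, 3.38 and 3.72, a fitted difference of 6.36 ± 0.18. On 1425526_a_at they were 10.17, 10.97, 10.81 and 10.46 against 5.78, 5.24 and 5.81, a fitted difference of 4.99 ± 0.26. On 1432129_a_at they were 8.26, 8.36, 8.32 and 7.98 against 5.96, 5.76 and 6.01. This last set is the only one of the 4 with both means above the 40th percentile, and it gave a 5-fold difference. On all 4, every stromal array lay above every endothelial array.

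The other Prrx1 probe sets did not differ so. On 1425527_at the stromal arrays lay at 6.00 to 6.34 and the endothelial arrays at 5.43 to 6.79, a difference of 0.04 with a 95% interval from -0.67 to 0.75. The set 1458004_at lay below the filter at 3.27 to 3.61 and 3.43 to 4.07. Prrx2, the paralogue of Prrx1, lay at 5.59, 6.13, 5.45 and 5.31 against 5.22, 5.58 and 5.58. Its groups overlapped and only stromal 1 and 2 passed their 40th percentile, so it was not tested.

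The genes with the most similar profiles were sought for each factor past the filter, as the smallest root mean square difference between centred log2 profiles over the 7 arrays. For Snai2 these were Epas1 (0.25), Plagl1 (0.29) and Cdh2 (0.29), and for Prrx1 Pawr (0.17), Colec11 (0.18) and Pcolce (0.21). Nearest to Twist1 were Epha3 (0.14), Alpl (0.14) and Wnt5b (0.16), and to Twist2 Tmem241 (0.09), Mmadhc (0.13) and Arap2 (0.14). Itpripl2 (0.12), Chd6 (0.15) and Fpgt (0.17) shared with Zeb1 the high value on endothelial 2. Zeb2 was closest to Rplp2 (0.17), Whamm (0.21) and Pcgf1 (0.23). Profiles over 2 populations are set mainly by the size of their difference, so these lists describe likeness on these arrays only.

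Of 13 relatives of the factors on the array, 8 were tested, 2 were called stromal and 0 endothelial, with 5 at an unadjusted limma p under 0.05 toward the endothelial arrays. Shox2, a homeodomain factor of limb mesenchyme, lay at 9.88, 10.22, 10.06 and 10.54 against 4.78, 4.74 and 4.70. Msc, a helix-loop-helix repressor also called MyoR, lay at 10.77, 10.96, 10.86 and 10.67 against 6.66, 6.56 and 6.46, 19.1-fold higher (adjusted p = 7.64e-07). Neither overlapped between groups. Snai3, the remaining Snail gene, lay at 6.41 to 6.58 against 7.39 to 7.61, a difference of -0.99 that missed the required size. By leading probe set, 30.5% of all 13995 genes tested were called stromal and 16.0% endothelial, 46.5% in all, with a median of 0.19.

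Of the E proteins that pair with Twist and Tcf21 and the Id proteins that block such pairs, 6 of 7 were called stromal and 0 endothelial. Toward the endothelial arrays 0 had an unadjusted limma p under 0.05. Beside these stand 30.5% stromal and 16.0% endothelial calls over all genes tested. With averaged probe sets 4 of the 7 were called stromal. Id4 was 73.3-fold higher (12.34, 12.39, 12.44 and 12.34 against 6.03, 6.58 and 5.94; adjusted p = 4.72e-07). Id3 was 65.8-fold higher, at 13.00, 13.11, 13.60 and 12.33 against 6.31, 8.26 and 6.34, and its difference rose from 6.04 to 6.68 without endothelial 2. Both Id genes stood apart without overlap. Tcf4, an E protein gene, lay at 10.29, 10.66, 10.78 and 10.24 against 7.36, 9.84 and 8.33, a difference of 1.98 (adjusted p = 0.0123), or 2.64 without endothelial 2. Tcf3 and Tcf12 differed by 1.41 and 1.45, and both calls were lost after a second quantile normalization and after cyclic loess. Leaving out endothelial 3 ended the call of Tcf3 (0.90) and leaving out endothelial 1 that of Tcf12 (0.86), and without probe sets of suffix _s_at, _x_at and _a_at Tcf12 turned to -0.34. Id2 overlapped between the groups, at 6.44 to 8.38 and 6.80 to 9.32.

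Among corepressors and chromatin partners, 7 of 13 were called stromal and 0 endothelial, with 1 at an unadjusted limma p under 0.05 toward the endothelial arrays. Of all genes tested, 30.5% were called stromal and 16.0% endothelial. The LIM proteins Ajuba and Wtip, which bridge Snail proteins to other repressors, differed by 4.11 and 4.43. Ajuba was 17.2-fold higher, and Wtip lay below the 40th percentile on the endothelial arrays, at 4.64, 5.38 and 5.64. The histone deacetylase gene Hdac2 differed by 2.69, with endothelial levels of 7.86, 7.91 and 5.76. Leaving out endothelial 3 gave 1.98, and the hybridisation-control block ended this call (2.01, adjusted p = 0.0648). The list median was 1.30, and 0.69 after cyclic loess.

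Of 10 genes tested that act on the turnover of Snail proteins, 4 were called stromal and 0 endothelial. The shares over all genes tested were 30.5% and 16.0%. Toward the endothelial arrays 1 of the 10 had an unadjusted limma p under 0.05. After a second quantile normalization 1 was called stromal and 1 endothelial. Lats2, a kinase that stabilises Snail in the nucleus, lay at 9.45, 10.02, 10.28 and 10.01 against 4.41, 7.5 and 3.88, a difference of 4.68. Leaving out endothelial 2 gave 5.79, leaving out endothelial 3 gave 3.98, and the mean of its probe sets gave 1.27, all called. The ubiquitin ligase genes Fbxl5 and Fbxo11 differed by 1.75 and 1.39. The Fbxl5 call was lost when any 1 stromal array, endothelial 1 or endothelial 3 was left out. The Fbxo11 call was lost without endothelial 1 (0.92) and after the second quantile normalization (1.15, adjusted p = 0.0503).

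Inducing signals were called stromal in 10 of 15 genes tested and endothelial in 2, with a median of 2.1. By leading probe set, 30.5% of all genes tested were called stromal and 16.0% endothelial. With averaged probe sets the inducing signals gave 7 stromal calls and 1 endothelial call of 14, with a median of 1.3. Bmp4, a bone morphogenetic protein, was 104-fold higher, at 13.26, 12.53, 12.42 and 12.93 against 6.08, 5.47 and 6.70. Its value on endothelial 2 lay below that array's 40th percentile of 5.69, so the size of this fold is not exact. The ligand genes Tgfb3 and Tgfb2, whose products induce Snail and Zeb factors, differed by 5.86 and 5.40, with endothelial values of 4.94 to 5.14 and 4.85 to 5.90. Tgfb1 went the other way, at 6.82, 6.45, 6.93 and 7.12 against 7.43, 7.72 and 8.48, a difference of -1.05 that fell short without stromal 2 or endothelial 3. It also fell short after ribosomal centring (-0.90, limma adjusted p = 0.122), and was -0.60 with endothelial 1 alone. Tgfb1 was called under 18 of 23 settings. Hmga2, a chromatin protein, differed by -1.32, by -0.98 with endothelial 1 alone, and by -0.39 without suffix-marked probe sets.

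Epithelial genes, the classical targets of Snail and Zeb repression, were above the 40th percentile in 6 to 8 of 20 on the stromal arrays and in 11 to 14 on the endothelial arrays. Of the 20, 11 did not pass the filter, among them Cdh1, which encodes E-cadherin, at 3.68 to 4.0 on the stromal and 4.52 to 6.07 on the endothelial arrays. Of the 9 tested, 0 were called stromal, with 0 at an unadjusted limma p under 0.05 that way, and 3 endothelial. Over all genes tested, 30.5% were called stromal and 16.0% endothelial. Epcam, an epithelial adhesion gene, was 2.37-fold lower on the stromal arrays, at 8.26, 8.45, 8.46 and 8.45 against 10.08, 9.30 and 9.58. The groups did not overlap, and the call was lost after centring on ribosomal protein genes (adjusted p = 0.0571). Esrp1, an epithelial splicing regulator, differed by -1.32, or -0.79 after cyclic loess. Cldn3, a claudin of tight junctions, differed by -1.01, and was called under 15 of the 22 settings that tested it. That call was lost after cyclic loess (-0.70), after ribosomal centring (-0.86, adjusted p = 0.128), with array weights (-0.96), with averaged probe sets (-0.92), and without stromal 1 (-0.91), endothelial 1 (-0.97) or endothelial 3 (-0.98). The median was -0.90 over the 9 tested, beside 0.19 over all genes tested, and -0.91 over the 20, beside -0.31 over all probe sets. The last value counts every probe set and the others only the leading one of a gene, so it is not in the same unit. Without the filter 8 of the 20 were called endothelial and 0 stromal, where 12.3% and 17.3% of all probe sets were. For probe sets below the filter, where 11 of the 20 lay, the median over all was -0.50, so dim probe sets in general ran toward the endothelial arrays.

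Mesenchymal structural genes were called stromal in 15 of 18 and endothelial in 1, against 30.5% and 16.0% of all genes tested. With averaged probe sets 14 of 16 were called stromal and 1 endothelial, with a median of 4.25 instead of 5.77. Cdh2, which encodes N-cadherin, lay at 12.45, 12.80, 12.69 and 12.88 against 3.62, 4.02 and 4.10. Cdh11, the cadherin of osteoblasts and fibroblasts, differed by 7.97. Tnc, the matrix glycoprotein tenascin-C and a known Prrx1 target, differed by 8.0, with endothelial values of 4.24, 7.97 and 4.80. It differed by 9.15 without endothelial 2, 7.28 without endothelial 1 and 5.67 in the mean of its probe sets. S100a4, a calcium-binding protein also made by leukocytes, went the other way, at 6.96, 7.01, 5.77 and 5.42 against 8.76, 10.62 and 9.15. The 10 pan-leukocyte markers summed to 15.53 to 15.80 in the endothelial and 10.56 to 11.88 in the stromal samples. Their part in the S100a4 value was not tested.

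**Figure D5:**
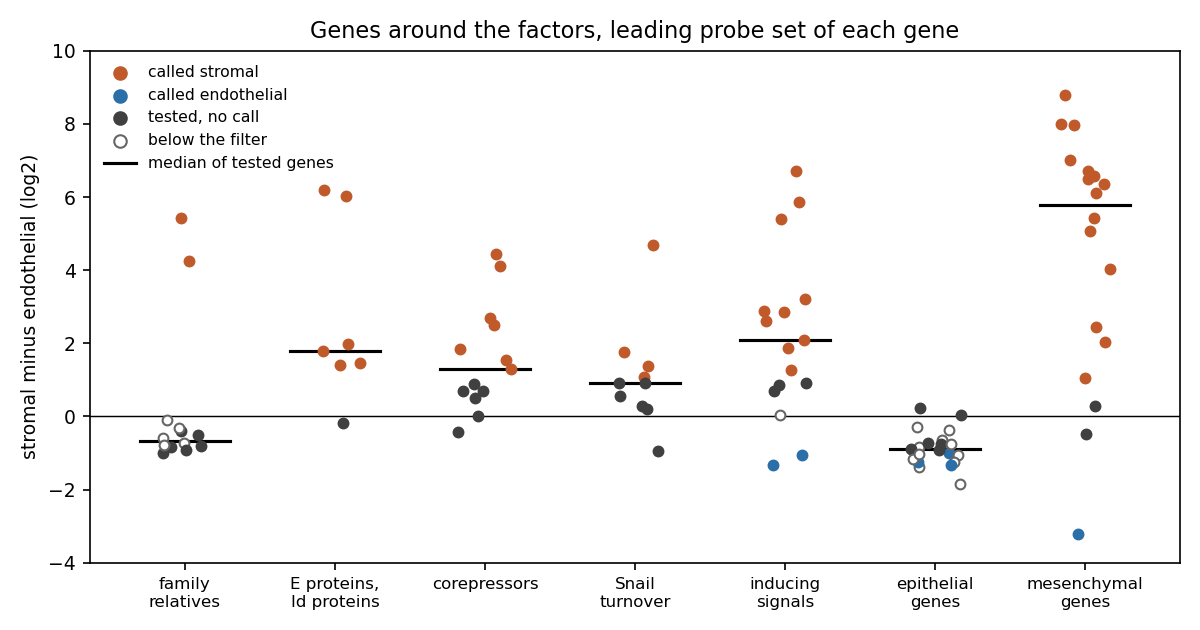
Difference in log2 expression, stromal minus endothelial, of each gene in 7 lists around the factors, by its leading probe set; colours give the call, open circles were below the filter, and lines are medians of the genes tested. Mesenchymal genes have a median of 5.77, whereas epithelial genes lie near -0.90 and hold no stromal call.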

How the data were processed

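Total RNA of sorted cells was amplified and hybridised to Affymetrix Mouse GE 430 2.0 arrays. Per the submitters' processing notes, the authors' deposited log2 values come from RMA in Affymetrix Expression Console 1.1, a method of background correction, quantile normalization and summary over probes. The set of arrays normalized jointly is not given in the sources used here. The table held 45101 probe sets, 64 of them controls. Of the rest, 34945 had 1 gene symbol in the platform annotation, 932 several and 9160 none. No 2 columns were identical.

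Differences were fitted with limma 3.58.1 in R 4.3.3, by lmFit and eBayes without covariates, on the 29439 probe sets with at least 3 arrays above their own 40th percentile, with Benjamini-Hochberg adjustment over all of them. Listed genes were read at the probe set with the highest mean. Folds are left out where either mean was under the 40th percentile of its arrays. The fit was tested on simulated data.

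Named were all members, up to 3 called genes of each list in each direction, and the 3 nearest profiles; Snai3, Tcf3, Tcf12, Id2 and Cdh1 were named after their values were seen. Members, lists and tests were chosen with earlier results of these data known. Alternatives were other filters, scalings, models, probe set rules, a replicate block, the hybridisation-control level and left-out arrays; applying them to the lists was chosen after seeing the data. Whether replicate numbers pair the arrays is not known.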

Additional observations from a re-analysis of the deposited data

Results flagged for a closer look

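In 39 groups of 4 stromal values, for 23 probe sets and 16 list sums, an array was marked when its gap to the nearest other exceeded Dixon's 95% critical share of the range, which chance gives in about 1 of 20 groups. Zeb2 on 1422748_at lay at 10.23 on stromal 4, far below 11.52 to 11.77 on the other stromal arrays. The summed megakaryocyte and platelet markers lay at 12.92 on the same array, above the other 3. Prrx1 on 1458004_at, a probe set below the filter, lay at 3.61 on stromal 2 against 3.27 to 3.30.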

How the results depend on the processing

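Snai2, Prrx1 and Twist1 kept their stromal call under every alternative that tested them, while Zeb1 lost it only when its probe sets were averaged (0.75), and Twist2 as given above and without stromal 4 and endothelial 2 together (0.98). Of all probe sets, 7649 were called stromal and 4293 endothelial. With 1 probe set a gene these were 4319 and 2252, and averaging each gene's probe sets gave 3386 and 1887, where fewer values were tested; the members then gave 5 and 4 calls. Centring on ribosomal protein probe sets left 2734 endothelial calls, and adjusted p alone gave 8580. The share of calls that were stromal was 64.1%, and 51.9% after a second quantile normalization, 59.4% after cyclic loess and 75.3% after ribosomal centring; these moved the median of all probe sets tested from 0.07 to -0.13, 0 and 0.21. Zeb2, at -0.14 and not called, changed sign with array weights (0.011), the mean of its probe sets (0.54), the hybridisation-control block or its lower-level arrays alone (0.091 each), and without stromal 4 and endothelial 2 (0.21); leaving out 1 array gave -0.30 to 0.21. Arrays of the same replicate number had correlations of deviations of -0.119, 0.002 and 0.117, against -0.107 to 0.133 for different numbers. With so few arrays these values cannot show whether the numbers pair the arrays. With the replicate block 9 member probe sets were called, as without it, and Zeb2 stood at 0.21, Twist2 at 1.09 and Zeb1 at 2.89. Of the untested members, Snai1 was 0.28 after the second quantile normalization and 0.53 after loess, and Prrx2 0.66 after loess. Where both groups lie below the arrays' 40th percentiles no difference can be read.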

Other observations

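The array held 650 tested probe sets with a stromal range of at least 2 in which stromal 1 was highest, then 3, 4 and 2, as on 3 Zeb probe sets. Of these 650, 66.8% had no single gene symbol, against 16.7% of all probe sets tested, and endothelial 3 was the highest endothelial array in 309. How often endothelial 3 was highest over all tested probe sets was not computed, so the 309 cannot be called particular to these. Rbm39, an RNA-binding splicing regulator chosen after its values were seen, had 6 such probe sets and Nisch had 3. The source of this order was not tested.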
